A study of Mus musculus with 11 samples.

Results

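The angiopoietin-Tie axis was followed here through 6 genes, listed by name with no threshold on a measured value: the ligands Angpt1 and Angpt2, the receptor tyrosine kinases Tek (the Tie2 receptor) and Tie1, the receptor phosphatase Ptprb (also called VE-PTP) and the transcription factor Foxo1. All 6 were found among the 55359 genes counted in each sample, and all 6 were among the 17050 genes that passed the filter on low counts. Angpt1 passed it only through 3 PBS-treated mice, as described below. The samples were CD31+/CD45- retinal vascular endothelial cells sorted by FACS from C57BL/6 mice (C57BL/6J in the study's methods) in the oxygen-induced retinopathy (OIR) model. In this model a stay of the pups in high oxygen up to P12 leads to a loss of retinal vessels (vaso-obliteration). The hypoxia that follows in room air drives pathological vessels. All 11 mice went through the OIR model and all were injected intravitreally at P12 with 0.5 µL of fluid. In 5 mice this was recombinant oncostatin M (OSM), a cytokine of the interleukin-6 family, at 100 ng/µL, and in 6 mice it was PBS. Cells were collected at P17, and each sample holds the cells of both eyes of 1 mouse. Since the study used contralateral eyes as PBS controls and its methods leave the second eye of the sequenced mice unmentioned, an OSM sample may hold cells from a PBS-injected eye. Litters 1 and 2 gave 2 OSM-treated and 2 PBS-treated mice each, litter 3 gave 1 OSM-treated and 2 PBS-treated mice, and the litter cannot be told apart from the OIR experiment it was used in.

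In blood vessels, Angpt1 is made mainly by mural cells (pericytes and smooth muscle cells) and activates Tek on the neighboring endothelium, which keeps the vessel quiet and tight. Angpt2 is made and stored by endothelial cells, is known to rise where vessels sprout or regress, and mostly opposes Angpt1 at Tek. Tie1 has no ligand of its own in this pathway and modulates Tek. Ptprb removes phosphate from Tek, and active Tek signals through phosphatidylinositol 3-kinase and Akt to keep Foxo1 out of the nucleus, where it can switch on Angpt2 and other genes.

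The total count was 26697990 to 56033479 reads per mouse (median 32500202), and 16635 to 20898 genes had at least 1 read. The 9 endothelial markers were detected in every mouse, at a summed 11894 to 14387 CPM (counts scaled to a library of 1e6 reads). The 12 mural markers summed to 601 to 1174 CPM in the OSM-treated mice (median 636) and to 427 to 2334 CPM in the PBS-treated mice (median 1222). All 12 had a negative log2 fold change of OSM against PBS, as had 8795 of all 17050 genes tested. By edgeR's quasi-likelihood test 2 of them, Pdgfrb and Higd1b, had an unadjusted p under 0.05, as had 4.96% of all genes. After adjustment over all genes, 0% passed. The 6 rod markers reached 4322 CPM in OSM mouse 5 and 158 to 1438 CPM in the others. The 4 erythroid markers summed to 277 to 916 CPM in the OSM-treated mice and to 102 to 460 CPM in the PBS-treated mice. Each of the 3 that were tested was higher with OSM at an unadjusted p under 0.05 by the same test, and none passed after adjustment. The 6 leukocyte markers, among them the gene of the CD45 used as gate, reached at most 13.1 CPM. The 7 glial markers summed to 164 to 327 CPM, of which Glul made up at least 77.3%, the 4 lymphatic markers to 88.8 to 244 CPM, of which Flt4 made up at least 93.3%, and the 5 platelet markers to 4.36 to 18.4 CPM. In a bulk sample, fewer cells of a type and less RNA per cell cannot be told apart.

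Both receptors lie on chromosome 4 of GRCm39, Tek (ENSMUSG00000006386) at chr4:94627291-94763224 on the plus strand and Tie1 (ENSMUSG00000033191) at chr4:118328385-118347261 on the minus strand. Angpt1 (ENSMUSG00000022309) is at chr15:42288058-42540417 on the minus strand and Angpt2 (ENSMUSG00000031465) at chr8:18739202-18791603 on the minus strand. Ptprb (ENSMUSG00000020154) is at chr10:116111428-116225440 and Foxo1 (ENSMUSG00000044167) at chr3:52175757-52260642, both on the plus strand. All 6 are annotated as protein-coding genes, and the counts cover their exons, untranslated parts included.

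The promoters of the receptors are shown because Tie1 and Tek were the members of highest level and yet differed by 2.00 on the log2 scale (below). RefSeq's promoter table, on build GRCm38.p6, has entries for Foxo1, Tek and Tie1. The 250 bases before each start are given from 5′ to 3′ on the gene's own strand, chr4:94739039-94739288 on the plus strand for Tek and chr4:118489850-118490099 on the minus strand for Tie1. Capitals mark the letters GGAA or their reverse complement TTCC, the core that ETS factors, a family known for driving endothelial genes, can bind.
Tek: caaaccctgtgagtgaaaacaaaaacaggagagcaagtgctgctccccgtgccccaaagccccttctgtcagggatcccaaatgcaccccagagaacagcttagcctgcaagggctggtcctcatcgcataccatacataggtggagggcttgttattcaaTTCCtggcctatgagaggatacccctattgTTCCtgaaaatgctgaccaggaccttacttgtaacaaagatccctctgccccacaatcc
Tie1: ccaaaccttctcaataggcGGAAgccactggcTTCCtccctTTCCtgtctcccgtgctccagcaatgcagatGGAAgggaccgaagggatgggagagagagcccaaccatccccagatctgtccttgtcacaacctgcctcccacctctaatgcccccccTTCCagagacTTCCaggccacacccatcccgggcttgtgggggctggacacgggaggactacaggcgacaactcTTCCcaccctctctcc
The Tie1 window holds 7 such matches and the Tek window 2, as does the Foxo1 window. Over all 32851 windows of the same length, the median was 3 matches, 93.4% held at least 1 and 3.82% held 7 or more. The core was searched after these sequences had been seen. The longer ETS letters CCGGAAGT, which contain the core, and the forkhead letters TGTTTAC, a form that Foxo1 can bind, were searched on both strands in windows that also take in 50 bases after the start. Neither was found in the windows of Foxo1, Tek or Tie1, and they are in 3.89% and 3.65% of all 32851 windows. A match is a description of letters, and binding was not measured.

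Tie1 was the member of highest level in the sorted cells. To compare genes, levels were set per length, as CPM per kilobase of exon (RPKM). Tie1 had 368 ± 42.5 RPKM (SD, n = 11 mice), which placed it at rank 46 of the 16962 tested genes with a known length, where Kdr, the main VEGF receptor, had rank 112 and Pecam1, the gene of CD31, rank 210. Tek had 93.7 ± 20.9 RPKM (rank 336) and Ptprb 90.9 ± 31.3 RPKM (rank 350). Thus the receptor and the phosphatase that acts on it had like mean levels per length, while the other receptor stood above both.

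Angpt2 had 46.5 ± 23.2 RPKM (rank 781), with a range of 23.6 to 96.5 RPKM over the 11 mice. Foxo1 had 10.7 ± 1.96 RPKM (rank 3283). Angpt1 had 0.108 ± 0.225 RPKM (rank 15387), and its reads came from 4 of the 11 mice. The axis in these cells was therefore measured as receptors, phosphatase and Angpt2, with next to no Angpt1.

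The steps in this order were tested within mice, on log2 RPKM with a prior count of 2, by an exact two-sided permutation test that flips the sign of each mouse's difference (n = 11 mice, 5 neighboring pairs). Tie1 exceeded Tek by 2.00 ± 0.29 (SD) on the log2 scale in 11 of 11 mice, Ptprb exceeded Angpt2 by 1.03 ± 0.60, Angpt2 exceeded Foxo1 by 2.00 ± 0.51 and Foxo1 exceeded Angpt1 by 8.86 ± 2.56, each in 11 of 11 mice. The exact permutation p of each of these 4 steps was 0.000977, the smallest this design allows, and 0.00122 after adjustment over the 5 pairs. The pairs were formed by ranking the members on these same values. The test covers the spread between mice and not the uncertainty of the lengths. The last difference depends on the prior count, because Angpt1 was at 0 in most mice. Tek and Ptprb did not differ beyond their spread, with a difference of 0.09 ± 0.32 on the log2 scale, Tek higher in 6 of 11 mice and an exact permutation p of 0.372. This test does not take litter into account. Ptprb was higher than Tek in every mouse of litter 1 and in OSM mouse 5 of litter 2, and lower in the others.

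**Figure D1:**
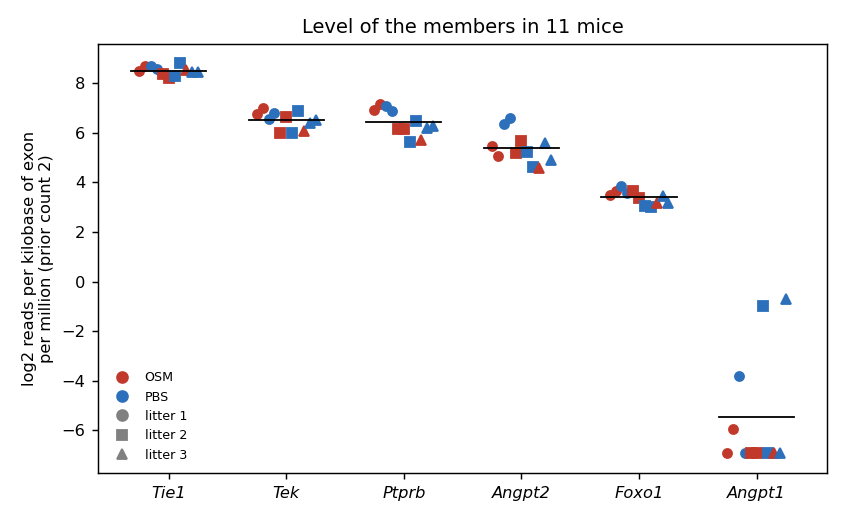
Level of each member in the 11 mice, as log2 RPKM with a prior count of 2; each point is 1 mouse, colored by treatment and shaped by litter, and the bar is the mean over all mice. Tie1 lies above all other members in every mouse, the points of Tek and Ptprb overlap, and 7 mice share the lowest Angpt1 value because they had 0 reads.

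The members also differed in how evenly they were expressed. After litter and treatment were removed, the residual SD of log2 CPM was 0.18 for Tie1, 0.23 for Foxo1, 0.29 for Ptprb, 0.34 for Tek and 0.56 for Angpt2. Over the 10911 genes with a mean of at least 100 normalized counts (counts scaled to a common library size), the median was 0.41. The endothelial ligand Angpt2 thus varied more from mouse to mouse than 65.9% of these genes, and Tie1 more than 10.3% of them. These genes were not matched to the members by level, and Angpt2 had a mean of 7610 and Tie1 of 62885 normalized counts. Whether a member was even or uneven for its level was not tested.

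Angpt1, the activating ligand, was close to absent. It had 2 reads in OSM mouse 2, 12 in PBS mouse 3, 115 in PBS mouse 7, 138 in PBS mouse 11, and 0 in the other 7 mice, 4 OSM-treated and 3 PBS-treated. PBS mice 7 and 11 held 94.8% of its 267 reads. Mouse numbers follow the sample labels, while the headers of the count columns of PBS mice 10 and 11, which share treatment and litter, number them 11 and 12. At the depths of the 7 mice without a read, a count of 0 allows up to 0.0535 to 0.105 CPM (3 reads per library, counting error only).

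The PBS-treated mice together had 265 Angpt1 reads and the OSM-treated mice 2, a PBS-to-OSM ratio of 127 per read sequenced. This ratio pools reads over mice and is given without an interval, because reads are not replicates of a treatment. The spread between mice was wide, since 3 of the 6 PBS-treated mice had 0 reads, as had 4 of the 5 OSM-treated mice. The ratio was 86.6 without mouse 7 and 73.0 without mouse 11, and each of these values still rests on the other mouse. Without both mice, the only PBS reads left are the 12 of PBS mouse 3, beside the 2 of OSM mouse 2. Because Angpt1 passed the filter through PBS-treated mice alone, its fitted fold change and p are not given, and it is left out of the counts of members that follow for OSM against PBS.

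PBS mice 7 and 11, with the most Angpt1 reads, had the highest summed mural markers of all mice, 1864 and 2334 CPM, against 427 to 1356 CPM in the other 9, and they stayed highest without Rgs5, the most abundant of these markers. OSM mouse 2 and PBS mouse 3, with few Angpt1 reads, had 601 and 1051 CPM. PBS mouse 10, next in order at 1356 CPM, had 0 Angpt1 reads. The part of mural transcripts in the Angpt1 reads was not tested.

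**Figure D2:**
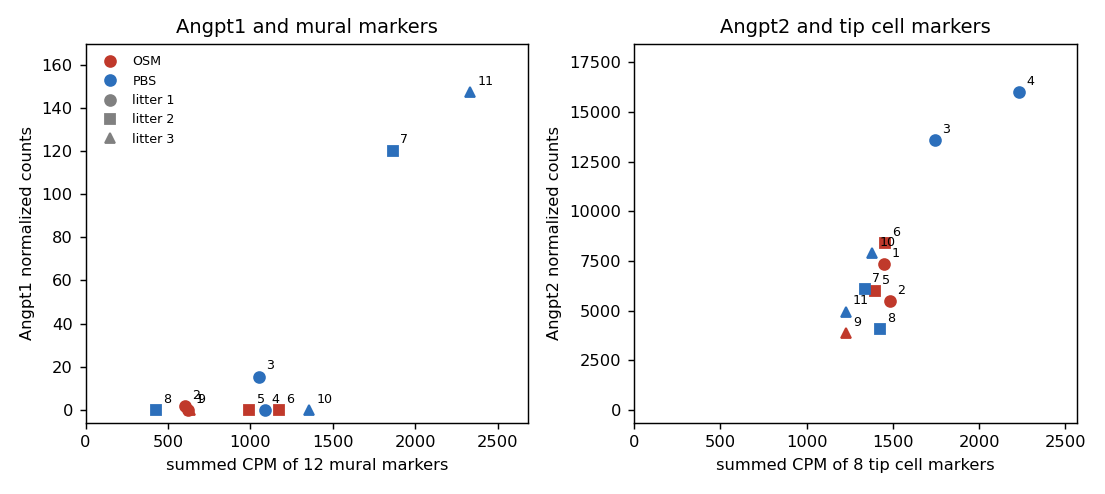
Left, Angpt1 normalized counts of each mouse against the summed CPM of 12 mural markers; right, Angpt2 normalized counts against the summed CPM of 8 tip cell markers, each point 1 mouse with its number, colored by treatment and shaped by litter. PBS mice 7 and 11 are highest in both Angpt1 and mural markers, and PBS mice 3 and 4, both of litter 1, are highest in both Angpt2 and summed tip cell markers, a rank that for mouse 3 rests on Apln.

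The central comparison of the study asks what the endothelial cells express 5 days after OSM. None of the 5 members with reads in every mouse was called between OSM-treated and PBS-treated mice by edgeR's quasi-likelihood test with litter as a term and Benjamini-Hochberg adjustment over 17050 genes. Of these 5 members 0 had an adjusted p under 0.05, where 0% of all genes did, and 0 had an unadjusted p under 0.05, where 4.96% (846 genes) did. DESeq2 also called 0 of them, where it called 168 of 28940 genes.

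Angpt2 had the largest difference among the 5 members with reads in every mouse. The OSM-treated mice had 7346, 5492, 6005, 8397 and 3864 normalized counts, and the PBS-treated mice had 4078 to 16019 (median 6990). The groups overlapped, with 4 OSM-treated mice inside the PBS range and 1 below it. The log2 fold change of OSM against PBS was -0.45 (SE 0.29, 95% interval -1.10 to 0.20), with an unadjusted p of 0.153 and an adjusted p of 1.

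Its difference was not the same in each litter. In litter 1, the OSM-treated mice had 7346 and 5492 normalized counts and the PBS-treated mice 13578 and 16019, a difference of -1.21 on the log2 scale. In litter 2, the OSM-treated mice had 6005 and 8397 and the PBS-treated mice 6070 and 4078, a difference of 0.51 in the other direction. In litter 3, the OSM-treated mouse had 3864 and the PBS-treated mice 7910 and 4954, a difference of -0.70.

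Over all mice, the test of whether the OSM difference depends on litter gave Angpt2 an unadjusted p of 0.00613 and an adjusted p of 0.532 by edgeR's quasi-likelihood test. It was the only member with an unadjusted p under 0.05 in this test, where 6.42% of all genes (1095) had one and 0% passed the adjusted threshold. This call rests on the method, since DESeq2 gave an adjusted p of 0.0163 and edgeR with no low-count filter 1.77e-05, within a range of 1.77e-05 to 0.859 over all alternatives. In this test DESeq2 called 673 of 28940 genes and edgeR with no low-count filter 305 of 28940. Without litter 1 the log2 fold change of OSM against PBS was 0.04, and without litter 2 it was -1.02 (adjusted p 0.804).

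PBS mice 3 and 4 had the highest summed tip cell markers, 1743 and 2231 CPM, against 1226 to 1483 CPM in the other 9 mice. One gene, Apln, made up 759 and 1121 CPM of these sums, against 366 to 544 CPM in the other mice. Over the other 7 markers mouse 4 was still highest, at 1110 CPM, but mouse 3, at 984 CPM, lay below mouse 8 at 994 CPM and close to the rest. Tip cells are the endothelial cells at the front of a growing sprout. The part of tip cell transcripts in the Angpt2 difference was not tested.

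**Figure D3:**
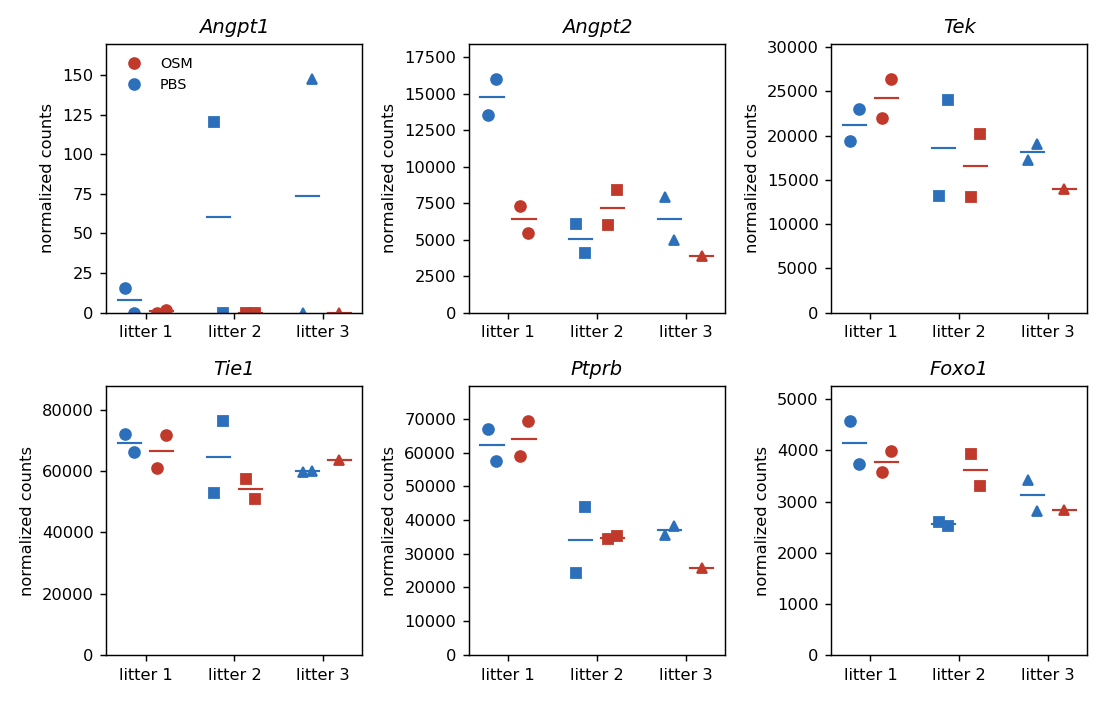
Normalized counts of each member in each mouse, by litter and treatment (blue PBS, red OSM); each point is 1 mouse and the bar is the mean of the mice of that litter and treatment, with all axes starting at 0. The mean of Angpt2 is lower with OSM in litters 1 and 3 and higher in litter 2, and Ptprb is higher in all 4 mice of litter 1 than in the other 7 mice.

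Tek, the receptor itself, was at 22015, 26408, 13024, 20196 and 13942 normalized counts in the OSM-treated mice and at 13165 to 24023 (median 19204) in the PBS-treated mice. The OSM values spread on both sides of the PBS range, with 1 above and 1 below it. The log2 fold change was -0.08 (SE 0.18, 95% interval -0.47 to 0.31), and the within-litter differences were 0.19, -0.13 and -0.38 in litters 1, 2 and 3.

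Tie1 had 61039, 71843, 57485, 50973 and 63461 normalized counts with OSM and 52939 to 76194 (median 63073) with PBS. These groups overlapped but for 1 OSM-treated mouse just below the PBS range. Its log2 fold change was -0.09 (SE 0.10, 95% interval -0.32 to 0.13), the narrowest interval among the members, so that a change of more than 0.32 on the log2 scale in either direction lies outside it.

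Ptprb, the phosphatase, had 59059, 69312, 34430, 35227 and 25904 normalized counts with OSM and 24445 to 67124 (median 41116) with PBS. High and low values occurred in both groups, and they followed the litter, as described below. The log2 fold change was -0.10 (SE 0.15, 95% interval -0.43 to 0.23). It was 0.05 and 0.09 in litters 1 and 2 and -0.51 in litter 3, and its sign turned without PBS mouse 8 (0.02), without OSM mouse 9 (0.03) and without the litter term (0.01).

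Foxo1, at the end of the pathway, had 3575, 3981, 3927, 3311 and 2838 normalized counts with OSM and 2523 to 4572 (median 3126) with PBS. All OSM-treated mice lay inside the PBS range. The log2 fold change was 0.10 (SE 0.14, 95% interval -0.21 to 0.42). With 1 mouse left out it ran from 0.01 (without OSM mouse 5) to 0.18 (without PBS mouse 3). It was 0.03 without PBS mouse 8 and 0.04 without PBS mouse 7. Within litter 2 the OSM-treated mice had 3927 and 3311 and the PBS-treated mice 2591 and 2523, a log2 difference of 0.50. In litters 1 and 3 the differences were -0.13 each. Its test of dependence on litter gave an unadjusted p of 0.0723 and an adjusted p of 0.777.

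**Figure D4:**
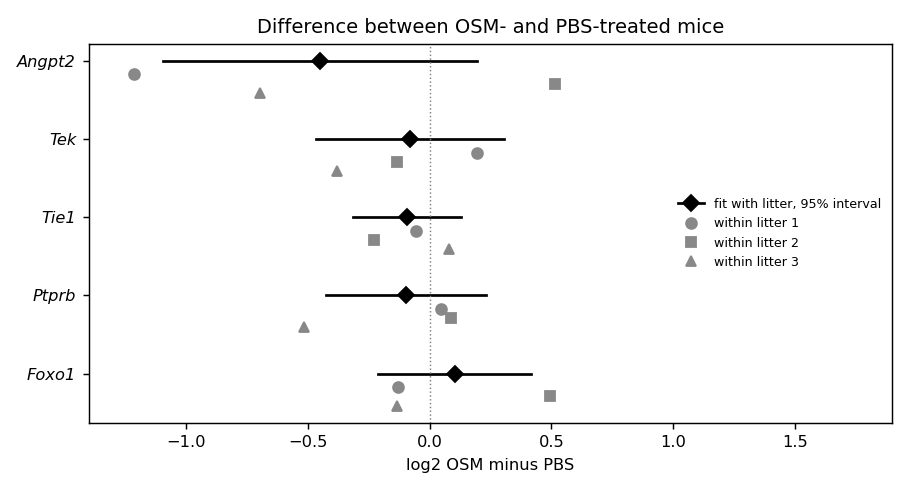
Log2 difference between OSM-treated and PBS-treated mice for the 5 members with reads in every mouse; the diamond and line are the estimate and 95% interval of the edgeR fit with litter as a term, and the gray symbols are the differences of mean log2 CPM within each litter. All 5 intervals include 0, and the within-litter values of Angpt2 run from -1.21 to 0.51.

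Ptprb had the lowest p of the members in the comparison of litters. All 4 mice of litter 1 had 57631 to 69312 normalized counts of this gene, regardless of treatment, while the mice of litter 2 had 24445 to 43884 and those of litter 3 had 25904, 35617 and 38349. Thus every mouse of litter 1 lay above every other mouse, which held for 1.52% of the genes tested (260) and for 1 of the 6 members. The means were 63282 ± 5799 (SD, n = 4), 34496 ± 7952 (n = 4) and 33290 ± 6541 (n = 3).

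On the log2 scale, Ptprb was at -0.88 (SE 0.17) in litter 2 and at -0.95 (SE 0.19) in litter 3, each relative to litter 1, while litters 2 and 3 differed by -0.08 (SE 0.19). In edgeR's quasi-likelihood test over the 3 litters its unadjusted p was 0.000295 and its adjusted p 0.0861. That is short of the threshold, which 0.0176% of all genes passed (Depp1, Klf6 and mt-Co1). The adjusted p was 0.0165 over the 10350 genes with at least 10 reads in every mouse, 2.92e-05 by DESeq2 and 1.83e-16 by edgeR without a filter, so whether Ptprb is called depends on the method. In the same order, these fits called 109 of 10350, 988 of 28940 and 625 of 28940 genes. With 1 mouse left out it was never called, and the highest adjusted p was 0.290.

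Angpt2 had an unadjusted p of 0.0434 between litters and an adjusted p of 0.470. Of the 6 members 2 had an unadjusted p under 0.05 between litters, against 10.3% of all genes. Angpt2 had 10609 ± 4997 normalized counts (SD, n = 4) in litter 1, 6138 ± 1767 (n = 4) in litter 2 and 5576 ± 2093 (n = 3) in litter 3. On the log2 scale this was -0.66 (SE 0.33) and -0.96 (SE 0.36) relative to litter 1, with a larger SE than for Ptprb. The high mean of litter 1 came from its PBS-treated mice, whereas Ptprb was high under both treatments in that litter.

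Tek, Foxo1 and Tie1 also had their highest mean in litter 1, and none was called. Relative to litter 1, Tek was at -0.37 (SE 0.20) and -0.46 (SE 0.22) in litters 2 and 3 on the log2 scale, with an adjusted p of 0.578. Foxo1 was at -0.37 (SE 0.16) and -0.37 (SE 0.18), with an adjusted p of 0.524. Tie1 was at -0.19 (SE 0.12) and -0.16 (SE 0.13), with an adjusted p of 0.71.

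Whether members vary together from mouse to mouse was asked for all 15 pairs, on log2 CPM centered on the mean of each litter, with an exact permutation test that shuffles mice within litters (3456 orders, two-sided) and adjustment over the 15 pairs. No pair passed. The receptor Tek and the phosphatase Ptprb came closest, with Pearson's r = 0.74 (exact permutation p = 0.0356, adjusted 0.534) and Spearman's rho = 0.74 (exact permutation p = 0.0188, adjusted 0.282) over 11 mice. With 1 mouse left out their r ran from 0.60 (without PBS mouse 8) to 0.88 (without OSM mouse 5). It was 0.81 without the 2 mice farthest from the median of Tek (exact permutation p = 0.094). Over all mice, 1.74% of 8561 genes had an r to Tek at least as high as that of Ptprb.

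The receptors Tie1 and Tek had r = 0.42 (exact permutation p = 0.519, adjusted 0.885) and rho = 0.17 (p = 0.728, adjusted 1). Without PBS mouse 8, which had the highest Tie1 count of all mice and a Tek count of 24023, r was -0.39, so the positive value rests on that mouse. Tie1 and Ptprb had r = 0.54 (exact permutation p = 0.282, adjusted 0.885) and rho = 0.54 (p = 0.122, adjusted 0.611), with 0.11 as the lowest r when 1 mouse was left out. Angpt2 had r = 0.44 with Foxo1 (exact permutation p = 0.172, adjusted 0.858) and r = -0.42 with Tie1 (p = 0.168, adjusted 0.858).

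The balance of Angpt2 to its receptor, taken per length, is a description of the same values. The ratio of Angpt2 to Tek was 0.261 to 0.578 in the OSM-treated mice (median 0.418) and 0.213 to 0.878 in the PBS-treated mice (median 0.576). The PBS range enclosed the OSM range. The ratio of Ptprb to Tek was 0.731 to 1.12 with OSM (median 1.10) and 0.765 to 1.45 with PBS (median 0.853), again with overlap. In litter 1 it was 1.12 and 1.10 with OSM and 1.45 and 1.05 with PBS. In litter 2 it was 1.11 and 0.731 with OSM and 0.778 and 0.765 with PBS. In litter 3 it was 0.778 with OSM and 0.863 and 0.8435 with PBS.

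For each member with at least 100 normalized counts, the genes most like it from mouse to mouse were taken from 8561 genes with a mean of at least 10 CPM, by Pearson's r of log2 CPM centered on litter over the 11 mice. They were picked as the highest of all these values and are given with no test. Angpt2 was closest to Gulp1, an adaptor in the engulfment of dying cells (r = 0.97), and to Arrdc3 (0.94), Nop58 (0.93), Ighmbp2 (0.91) and Ddx3x (0.91). Tek was closest to Gid4 (0.95), Oxsr1 (0.95), Sgms1 (0.94), Sgk1 (0.93), a kinase downstream of phosphatidylinositol 3-kinase, and Mtrf1 (0.92).

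The genes closest to Tie1 were Urgcp (r = 0.98), Thbd, the gene of thrombomodulin (0.96), Gpr4, a proton-sensing receptor (0.92), Ier2 (0.92) and Phc2 (0.92). Among those closest to Ptprb were Fn1, the gene of fibronectin (0.96), Inppl1 (0.94), App (0.94) and Synj1 (0.94). Foxo1 was closest to Crx, a transcription factor of photoreceptors (0.95), followed by Taf9b (0.94), Snrpb2 (0.93), Sh3glb1 (0.91) and Trim33 (0.90). Summed rod markers ranged from 158 to 4322 CPM between mice, and their relation to Crx or Foxo1 was not tested.

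The rest of the pathway was described with 5 lists of 54 genes in all, of which 51 were tested. Of these, 0 passed the adjusted threshold for OSM against PBS, where 0% of all genes did, and 2 had an unadjusted p under 0.05, both lower with OSM. By sign, 24 had a positive and 27 a negative log2 fold change. Their median was -0.03, beside -0.01 over all genes tested.

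Among 9 further ligands and partners, 7 were tested, and 1 had a positive and 6 a negative log2 fold change (median -0.09). Angpt4, the other mouse ligand, had reads in 2 mice and Svep1 at most 10 reads, so neither was tested. Itgav and Itgb3, the subunits of an integrin that Angpt2 can bind, had log2 fold changes of -1.09 (SE 0.57) and -0.70 (SE 0.37). Their adjusted p by edgeR was 0.955 and 0.957. When no low-count filter was applied, edgeR called Itgav and no other listed gene. Itgb1 had the highest level of the list (315 RPKM) and a log2 fold change of -0.06 (SE 0.10).

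The 3 proteases that cut Tie receptors all had negative log2 fold changes. Adam17 had -0.40 (SE 0.17, unadjusted p = 0.0358, adjusted p = 0.955 by edgeR), Mmp14 -0.07 (SE 0.08) and Adam10, the most abundant at 80.5 RPKM, -0.03 (SE 0.12).

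Among the 21 adaptors and effectors below the receptors, 12 had positive and 9 negative log2 fold changes (median 0.01). Rasa1, which turns Ras off, had -0.42 (SE 0.14, unadjusted p = 0.0114, adjusted p = 0.955 by edgeR). Pik3r1, a regulatory subunit of phosphatidylinositol 3-kinase, had 1.06 (SE 0.49, unadjusted p = 0.0511). Mapk3 had the highest level (118 RPKM) and a log2 fold change of 0.06 (SE 0.10).

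Of the other FoxO factors, Foxo3 had 0.851 RPKM and a log2 fold change of 0.59 (SE 0.63), and Foxo4 had 0.161 RPKM and 1.14 (SE 1.11), while Foxo6 had reads in 2 mice and was not tested. Foxo1, at 10.7 RPKM, was thus the FoxO gene of highest level in these cells. The 18 targets of FoxO factors had 9 positive and 9 negative log2 fold changes (median 0.00358). Gadd45a had -0.35 (SE 0.23, unadjusted p = 0.152), Txnip -0.14 (SE 0.11, unadjusted p = 0.228) and S1pr1, the target of highest level (162 RPKM), 0.09 (SE 0.08).

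Between litters, 16 of the 51 genes had an unadjusted p under 0.05, against 10.3% of all genes. The target Klf6 was called by edgeR (adjusted p = 0.0217), with means of 14890 ± 715 normalized counts (SD, n = 4) in litter 1, 10363 ± 452 (n = 4) in litter 2 and 8893 ± 314 (n = 3) in litter 3. This call was lost in 8 of the 11 fits that left out 1 mouse. S1pr1, a lipid receptor of the endothelium, had 29102 ± 1570, 19859 ± 2110 and 18470 ± 1784 in the same order (adjusted p = 0.0641 by edgeR). Both genes had their highest mean in litter 1, as had every member with reads in all mice, Ptprb among them.

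**Figure D5:**
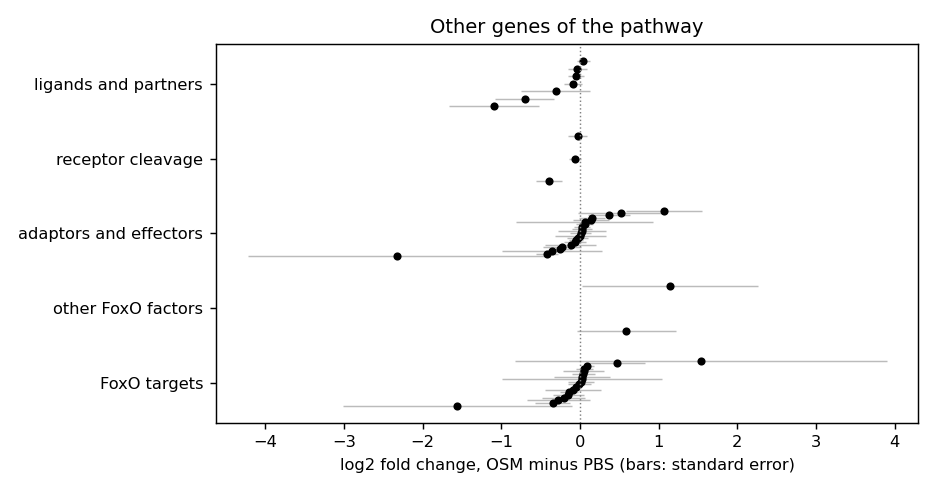
Log2 fold change of OSM against PBS for the 51 tested genes of the 5 pathway lists, each point 1 gene and each line its standard error, sorted within a list. Points lie on both sides of 0 in every list but the proteases and the other FoxO factors, and the widest lines belong to genes with few reads.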

How the data were processed

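Sorted cells of 11 mice were sequenced from poly(A)-primed, PCR-amplified cDNA without molecular identifiers. The authors used STAR for alignment of single reads to GRCm39 and featureCounts with a GENCODE annotation for counting, and the deposited counts are whole reads per gene without normalization. Symbols, positions and exon lengths came from GENCODE vM39 (54749 of 55359 genes matched). The library of each treatment and litter was taken from the sample labels.

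Counts were analyzed in edgeR 4.0.16 (TMM, filterByExpr with a count minimum of 10, robust quasi-likelihood fit with litter and treatment, Benjamini-Hochberg adjustment, threshold 0.05). Litter and the litter-by-treatment term were tested likewise. RPKM used the union of exons, and log2 values a prior count of 2. The alternatives were DESeq2 1.42.0 (the study's tool), other scaling and filters, no litter term, and leaving out mice or litters. The tests were tried on simulated data.

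Members and lists were chosen with earlier results of these data known. All members are named. Of the pathway lists, genes called in any treatment fit, those of lowest p and that of highest level are named, as are the 5 genes most like each member (1 of these genes is not reported here). Klf6, S1pr1 and the other genes called between litters were named after their values were seen. No replicate number is shared between the treatments, and litter served as the block. P-values measure the spread between mice.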

Additional observations from a re-analysis of the deposited data

Results flagged for a closer look

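Angpt1 in OSM mouse 2 stood apart from the other OSM-treated mice at 1.98 normalized counts (2 reads), because the other 4 had 0. It was the 1 lone far value among 12 groups tested. The rate of about 1 of 20 groups that chance gives does not hold here, because with the other mice at 0 any mouse with a read is flagged.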

How the results depend on the processing

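Of the members 0 were called between OSM and PBS under any alternative, and the order of levels per length kept its calls. Calls over all genes depended on the method: for OSM against PBS, edgeR without a filter on low counts called 65 genes (1 of the pathway lists), DESeq2 168 and DESeq2 without litter 88. Between litters the numbers were 625 without a filter (2 members), 109 with at least 10 reads in every mouse (1 member) and 988 with DESeq2 (1 member). For dependence of the OSM difference on litter they were 305 without a filter and 673 with DESeq2 (1 member each). The fits without a filter and by DESeq2 with litter each tested 28940 genes. DESeq2 without litter tested 26782 and the fit with at least 10 reads in every mouse 10350, against 17050 in the main fit. Leaving out 1 mouse gave 0 to 0 genes for OSM against PBS, 0 to 44 between litters (0 without any 1 of mice 1, 2, 3, 4, 5, 9 and 11, 1 without mouse 10, 7 without mouse 6, 8 without mouse 7 and 44 without mouse 8) and 0 to 1 for the dependence on litter (1 without mouse 3 or mouse 4), which could not be estimated without OSM mouse 9. Signs of small differences turned: Angpt2 was 0.0375 without litter 1, Foxo1 -0.141 without litter 2, Tek 0.0125 and Ptprb 0.0313 without litter 3, and Ptprb 0.009 (edgeR) and 0.002 (DESeq2) without the litter term. With 1 mouse left out, Angpt2 ranged from -0.687 to -0.261, Foxo1 from 0.0124 to 0.182, Ptprb from -0.222 to 0.0316, Tek from -0.181 to 0.0751 and Tie1 from -0.157 to 0.0106. The r of Tek and Tie1 ranged from -0.390 to 0.680, and was -0.249 without the 2 mice farthest from the median. The cause of these shifts was not tested. No paired analysis was possible because the treatments share no replicate number. With 5 and 6 mice, differences within the intervals given were not excluded, and Angpt1 had too few reads for a fitted comparison.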
